A study of Rattus norvegicus with 9 samples.

Results

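Hippocampal RNA of Model rats was set against the mean of the Ctrl and ChryM rats, to find RNAs that stood apart in the Model libraries and not in the other libraries. All 9 libraries entered, 3 from the Model group against 6 others (3 Ctrl and 3 ChryM). The genes described below passed the test (an adjusted p under 0.05 with edgeR's quasi-likelihood test) and had all 3 Model libraries above the highest, or below the lowest, of the other 6. Of 7073 genes tested, 321 (4.54%) met both conditions, 215 of them higher in Model (3.04%) and 106 lower (1.50%).

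All rats were male Sprague-Dawley animals, 6 to 8 weeks old when they arrived. Ctrl rats were the normal controls. The diabetes protocol gave a high-fat diet for 4 weeks and then streptozotocin, a toxin of insulin-producing beta cells, in a single intraperitoneal dose of 50 mg/kg; a fasting glucose of at least 16.7 mmol/L was required, and 5 weeks of chronic unpredictable mild stress came after it. Model rats carried this combination with no drug. Chrysophanol, an anthraquinone of rhubarb, was given by gavage for 14 days, and the ChryM libraries carry its name; that these rats had first gone through the diabetes and stress protocol follows from the series title. The sources used here state neither the dose of chrysophanol nor a vehicle for the Ctrl and Model rats. The labels do not tie libraries to separate animals, so the p-values measure the spread between libraries, which may be technical.

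The hippocampus holds granule neurons in the dentate gyrus and pyramidal neurons in the CA fields, joined by smaller numbers of inhibitory interneurons that carry neuropeptides such as somatostatin and cholecystokinin. Oligodendrocytes wrap the axons in myelin, a membrane stack built from a few abundant proteins, among them Mbp and Mobp. Transmitter release depends on vesicles that dock through a SNARE complex of Snap25, Vamp2 and a syntaxin. The choroid plexus, which makes cerebrospinal fluid and is the brain's main source of transthyretin (Ttr), lies against the hippocampus and can be taken with it.

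Libraries held 631119 to 866048 counts, a low depth at which genes among the 321 had a median of 91 to 123 counts per library. The summed level of 6 markers of hippocampal neurons was 1857 to 2119 CPM (counts scaled to the library total) in Ctrl, 1724 to 1952 in Model and 1994 to 2198 in ChryM. Most of this sum came from Hpca (2624, 2215 and 3319 counts in Ctrl, Model and ChryM) and Slc17a7 (1453, 1165 and 1238). Prox1 had 3, 2 and 6 counts and Wfs1 176, 50 and 205. The sum shows neuronal RNA in each library, and not that the tissue was taken alike. The kit marks strand, and the sources used here do not state the strand setting of the counting. Mt-nd6 is the only mitochondrial protein gene on the opposite strand from the other 12. Its mean deposited FPKM was 42036 (26283 to 56683 over the libraries). None of the other 12 exceeded a mean of 7417 (Mt-atp6, 5963 to 7997 over the libraries). Counts under a gene's name can therefore come from the opposite strand, and protein-coding genes with a symbol that overlap a described gene are named beside it. Among the 321 genes, 232 were found in a RefSeq gene table by identifier or, failing that, by symbol. Of these 232, 115 (49.6%) overlapped another gene, against 46.5% of all tested genes found there.

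The 321 genes fell into classes by how far ChryM lay from Ctrl, a difference that the balanced design keeps apart from the Model comparison. In 212 of them (156 higher, 56 lower) the 95% interval of ChryM minus Ctrl lay inside a 1.5-fold band. In 48 of these 212, ChryM still differed from Ctrl at an adjusted p under 0.05. The band is 0.58 on the log2 scale, wider than the median Model difference of 0.44 in the higher genes, so it does not mean a common level. In 39 of the 321 (21 higher, 18 lower) ChryM differed from Ctrl at an adjusted p under 0.05 and the interval was not inside the band. In 70 neither held. Across all tested genes the interval lay inside the band in 27.9%; the range condition itself favours genes in which the other 6 libraries are alike, so nothing is read from the larger share among the 321. ChryM differed from Ctrl in 87 of the 321 at an adjusted p under 0.05, against 18.8% of all tested genes; ChryM lay between Ctrl and Model in 62 of these and on the far side of Ctrl in 25. Against Ctrl alone and against ChryM alone, both of which share the Model libraries, 165 of the 321 were called in each, 96 against Ctrl only, 53 against ChryM only and 7 against neither. Of all tested genes, 12.4% were called against Ctrl alone and 8.27% against ChryM alone.

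**Figure D1:**
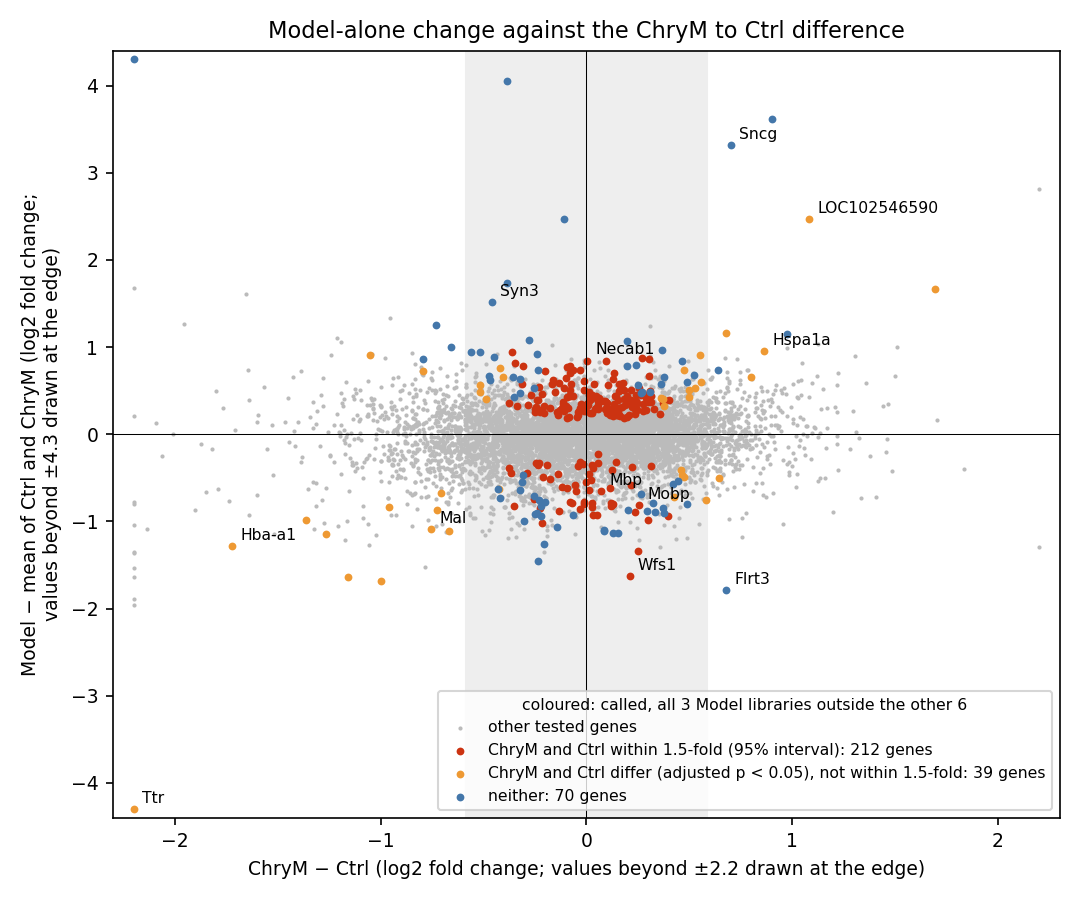
Each point is a tested gene, with the ChryM minus Ctrl difference on the horizontal axis and Model minus the mean of Ctrl and ChryM on the vertical axis, both as log2 fold changes; the grey band marks 1.5-fold, and the colours mark the 3 classes of the 321 genes. The 212 red genes lie within the band, while Ttr and Hba-a1 lie far to its left and LOC102546590 to its right.

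Changes were mostly modest: the median log2 difference was 0.44 in the 215 higher genes and −0.78 in the 106 lower genes, against −0.01 over all genes tested. At least 2-fold differences were seen in 33 of the 321 genes, 15 higher and 18 lower. In the test alone 520 genes were called (7.35%), 336 higher (4.75%) and 184 lower (2.60%), of which 199 had Model libraries that overlapped the other 6. With library totals in place of TMM scaling the balance of the 520 turned, to 203 higher and 327 lower of 530, or 38.3% higher against 64.6%. Without Model replicate 3 the 520 became 339 and the 184 lower genes became 103; without Model replicate 2 the lower genes numbered 111. DESeq2 called 258 genes, 188 of them with Model outside the other 6, and a fit with Ctrl and ChryM as 1 group of 6, in which the ChryM to Ctrl difference counts as spread, called 85.

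Necab1, a neuronal EF-hand calcium-binding protein, had the smallest p among genes with Ctrl and ChryM inside the 1.5-fold band. Its level, in CPM with TMM scaling as for all single genes below, was 2024, 2006 and 2389 in the Ctrl libraries, 3904, 3806 and 3825 in Model and 2116, 2122 and 2196 in ChryM. The Model libraries stood well above a Ctrl and ChryM range that was shared, with ChryM minus Ctrl at 0.00 on the log2 scale (95% interval −0.13 to 0.14). Model minus the mean of the other groups was 0.84 ± 0.06 (log2, SE; adjusted p = 6.77e-30). Of 21 tested genes of calcium-binding and buffering proteins, 4 were called (19.0%, against 7.35% of all genes), and the others did not follow Necab1: Ppp3ca and Camk2b were lower and Cabp1 was higher with ChryM at a like level (171 ± 7.35 CPM, against 185 ± 19.97 in Model), a call lost without Model replicate 3 (adjusted p = 0.12). Ppp3ca, a catalytic subunit of the calcium-activated phosphatase calcineurin, was 333 ± 14.9 CPM in Ctrl (mean ± SD, n = 3), 258 ± 2.59 in Model and 339.9 ± 4.97 in ChryM, a log2 difference of −0.38 ± 0.09 (adjusted p = 4.95e-04). Camk2b, a subunit of the synaptic kinase CaMKII, was 677 ± 19.6, 574 ± 32.3 and 749 ± 9.20 CPM in the same order, with a difference of −0.31 ± 0.07 (adjusted p = 5.32e-04).

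Sncg, which encodes gamma-synuclein, a small protein of axons and synaptic terminals related to alpha-synuclein, rose most among named genes of at least 10 CPM. It read 4.87, 6.03 and 15.6 CPM in Ctrl, 121, 88.8 and 118 in Model and 10.1, 17.5 and 13.8 in ChryM. Every Model library exceeded the highest other library several times over, and Ctrl and ChryM overlapped. The log2 difference was 3.32 ± 0.23 (adjusted p = 2.24e-36), and Mmrn2 lies within 5 kb. The other 3 tested synuclein-list genes were not called.

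Genes of synaptic vesicles and their fusion machinery moved one way where they were called. Of 28 tested, 5 were called (17.9%, against 7.35% of all genes), each of them higher with Model outside the other 6: Syn3, Snap25, Vamp2, Nsf and Rab3a. The median of the 28 was 0.11 on the log2 scale against −0.01 over all genes, and it was 0.02 when library totals replaced TMM scaling. With library totals Syn3 and Snap25 kept their calls, while Vamp2 (adjusted p = 0.062), Nsf (0.19) and Rab3a (0.24) lost theirs; DESeq2 did not call Nsf or Rab3a either. Syn3, a synapsin that coats vesicles, read 28.0, 25.3 and 26.9 CPM in Ctrl, 66.8, 58.1 and 70.2 in Model and 21.4, 18.7 and 17.99 in ChryM. Model was above both, and all 3 ChryM libraries were below the Ctrl libraries; the log2 difference was 1.52 ± 0.19 (adjusted p = 3.95e-11). Timp3 and Fbxo7 overlap Syn3. Snap25 read 1235, 1187 and 1099.9 CPM in Ctrl, 1433, 1353 and 1406 in Model and 1067, 1119.7 and 1122 in ChryM, with Ctrl and ChryM overlapping and a difference of 0.30 ± 0.06 (adjusted p = 1.86e-04). Vamp2, which lies beside the clock gene Per1, differed by 0.31 ± 0.08 (adjusted p = 5.28e-03), and by 0.29 without Model replicate 2 (adjusted p = 0.051). Vamp2 was 325 ± 22.8 CPM in Ctrl, 369 ± 14.6 in Model and 273 ± 27.8 in ChryM. It was called against ChryM alone (adjusted p = 4.4e-04) and not against Ctrl alone (0.20). Nsf, the ATPase that takes used SNARE complexes apart, and Rab3a, a vesicle GTPase overlapped by Mpv17l2, were nearer the threshold. Nsf (adjusted p = 3.26e-02) lost its call without any of Ctrl replicate 3, the 3 Model replicates or ChryM replicate 3, reaching an adjusted p of 0.19 without Model replicate 3. Rab3a (adjusted p = 4.61e-02) kept its call only without Ctrl replicate 1 or ChryM replicate 2 and reached 0.26 without Model replicate 1.

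Among 13 tested genes of interneuron markers and neuropeptides, 5 were called (38.5%, against 7.35% of all genes), 4 of them higher with Model outside the other 6 (Vgf, Cck, Chga and Sst) and 1 lower (Nucb2, whose Model and ChryM libraries overlapped and whose call was lost without Ctrl replicates 1 or 2, Model replicates 1 or 2 or ChryM replicate 2, up to an adjusted p of 0.22). Vgf, the precursor of granule peptides that act in the brain, read 151, 163 and 144 CPM in Ctrl, 196, 229 and 207 in Model and 119.8, 96.8 and 133 in ChryM. The 3 groups did not overlap, with ChryM below Ctrl, and the log2 difference of Model was 0.66 ± 0.10 (adjusted p = 1.03e-07). Cck, the precursor of cholecystokinin, read 211, 195 and 208 CPM in Ctrl, 295, 301 and 319 in Model and 213, 248 and 223 in ChryM, a difference of 0.50 ± 0.09 (adjusted p = 2.78e-06). The ChryM libraries of Cck lay just above those of Ctrl. Chga, the granule protein chromogranin A, was 325 ± 20.5 CPM in Ctrl, 391 ± 34.3 in Model and 319 ± 14.6 in ChryM; its call was lost without Ctrl replicate 1 or Model replicate 1, with an adjusted p of 0.24 in the second case, with library totals (0.11) and on the log2 FPKM scales (0.15 to 0.16). Sst, the precursor of somatostatin, was 69.1 ± 10.7, 95.6 ± 11.2 and 70.3 ± 6.55 CPM (adjusted p = 2.98e-02), and lost its call without Ctrl replicate 2, Model replicates 1 or 2 or ChryM replicate 1, reaching 0.25 without Model replicate 1. The call of Sst was also lost with library totals (adjusted p = 0.11), with DESeq2 (0.15) and on the log2 FPKM scales.

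Nefh, the heavy neurofilament subunit of axons, read 368, 385 and 383 CPM in Ctrl, 564, 461 and 566 in Model and 357, 317 and 338 in ChryM. Its lowest Model library was above all others, and the log2 difference was 0.57 ± 0.07 (adjusted p = 1.40e-10). Nefm, the medium subunit, passed the test at 0.42 ± 0.07 (adjusted p = 1.59e-07) with another order: Model (929 ± 58.9 CPM) was level with Ctrl (931 ± 46.5), while ChryM was lower (518 ± 56.8). These were the only 2 called of 5 tested neurofilament genes (40%, against 7.35% of all genes). Fgf14, an intracellular partner of neuronal sodium channels that overlaps Itgbl1, was 81.5 ± 11.2, 135 ± 6.85 and 77.0 ± 13.2 CPM, a difference of 0.77 ± 0.13 (adjusted p = 4.04e-07).

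Further higher genes with small p included Nnat, Gnas, Pced1b and Gpr39, and Ntrk2 lay nearer the threshold. Nnat, an imprinted gene for a small membrane protein of the endoplasmic reticulum, read 526, 526 and 529 CPM in Ctrl, 778, 837 and 851 in Model and 403, 418 and 421 in ChryM. The 3 groups were separate, and the difference of Model was 0.82 ± 0.07 (adjusted p = 1.14e-22); Blcap overlaps it. Gnas, the imprinted gene of the stimulatory G-protein alpha subunit, was 817 ± 22.2, 1078 ± 62.1 and 773 ± 37.1 CPM in Ctrl, Model and ChryM, a difference of 0.44 ± 0.06 (adjusted p = 1.12e-08). Pced1b, which overlaps the neuronal adhesion gene Amigo2, read 368, 373 and 416 CPM in Ctrl, 681, 608 and 668 in Model and 295, 275 and 331 in ChryM, a difference of 0.94 ± 0.07 (adjusted p = 2.20e-25). Its ChryM libraries were all below Ctrl. Gpr39, a zinc-sensing receptor gene that overlaps Lypd1, was 507 ± 57.8, 741 ± 34.6 and 378 ± 9.48 CPM, a difference of 0.76 ± 0.07 (adjusted p = 3.06e-19). Ntrk2, the receptor of the neurotrophin BDNF and the only called gene of 5 on the neurotrophin list, was 68.7 ± 1.05, 102 ± 13.3 and 81.1 ± 10.9 CPM. Its adjusted p was 2.29e-02, with the call lost without Model replicate 1 (adjusted p = 0.26) or ChryM replicate 1, with library totals (0.098) and with DESeq2 (0.13). Ntrk2 was not called against ChryM alone (adjusted p = 0.21).

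**Figure D2:**
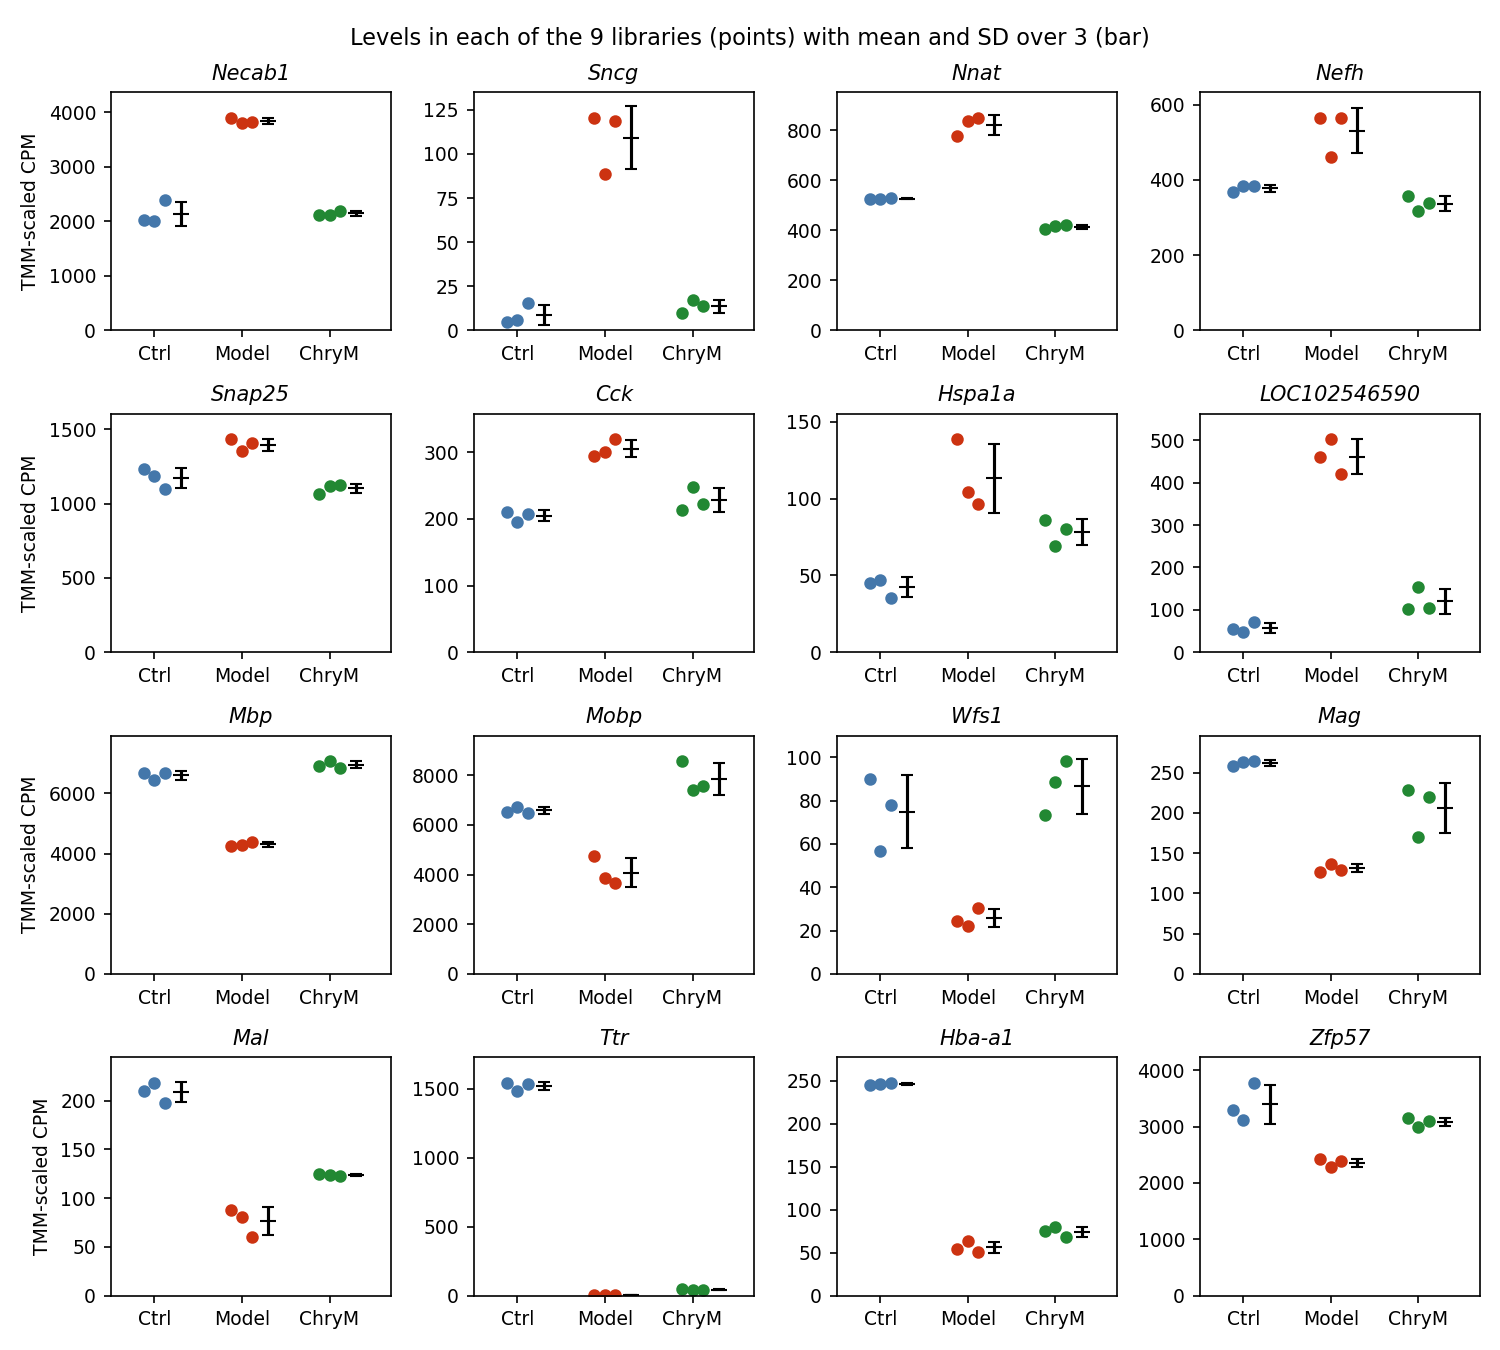
Levels of 16 genes in the 9 libraries, in CPM with TMM scaling, with 1 point per library and the mean and SD over 3 libraries beside each group. In the upper 8 panels the Model points lie above all others, and in the lower 8 they lie below. The ChryM points also sit apart from the Ctrl points in several panels, among them Nnat, Hspa1a, LOC102546590, Mobp, Mag, Mal, Ttr and Hba-a1.

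Other higher genes had roles outside neurons or none that is well known. Cibar2 was 1271 ± 69.7 CPM in Ctrl, 2252 ± 63.3 in Model and 1571 ± 92.8 in ChryM, a difference of 0.67 ± 0.06 (adjusted p = 1.75e-20). Chst7, a sulfotransferase gene beside Slc9a7, was 1300.4 ± 109.5, 1696 ± 30.5 and 1309 ± 79.1 CPM, a difference of 0.38 ± 0.06 (adjusted p = 3.38e-07). Hic1, a transcriptional repressor gene beside Smg6, differed by 0.47 ± 0.07 (adjusted p = 2.21e-07), and Smtn, a smooth muscle cytoskeleton gene beside Selenom, by 0.37 ± 0.06 (adjusted p = 9.17e-07). Or14c39 and Or5a3 carry the names of odorant receptors. Or14c39, beside Folh1, differed by 0.49 ± 0.07 (adjusted p = 2.44e-09); Or5a3 was at 5.62 to 7.26 CPM on average in ChryM and Ctrl and at 21.5 ± 3.33 in Model, a difference of 1.73 ± 0.37 (adjusted p = 2.80e-04). Nfkbie, an inhibitor of NF-kB beside Slc35b2 and the only called gene of 3 tested on the cytokine list, was 13806 ± 673, 18139 ± 737 and 15556 ± 818 CPM, a difference of 0.31 ± 0.06 (adjusted p = 3.67e-05). The rule for large differences also named Ccdc57, Nat8f3, Hey1 and Ccdc137, all of low level. Model was 20.1 ± 3.57 CPM for Ccdc57, 25.7 ± 6.18 for Nat8f3, 23.3 ± 9.06 for Hey1 and 19.7 ± 4.55 for Ccdc137, with differences of 1.09 (Hey1) to 1.67 (Ccdc57). Ccdc57 was 3.43 ± 0.92 CPM in Ctrl and 11.2 ± 3.44 in ChryM, and Nat8f3 was 8.06 ± 5.43 and 16.0 ± 1.42. Neither was called against ChryM alone (adjusted p = 0.20 for Ccdc57 and 0.22 for Nat8f3). Hey1 (0.052) and Ccdc137 (0.13) were not called against Ctrl alone. Ccdc57 kept its call without each library, Nat8f3 lost it without Model replicate 1, Hey1 without Model replicate 3 and Ccdc137 without Model replicates 1 or 3 (adjusted p up to 0.31).

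Hspa1a, the stress-inducible chaperone Hsp70, was higher in Model than in both other groups, with ChryM in between. It read 45.1, 47.0 and 35.3 CPM in Ctrl, 139, 104 and 96.4 in Model and 85.7, 68.8 and 80.3 in ChryM. The 3 groups did not overlap; Model differed from the mean of the others by 0.96 ± 0.14 (adjusted p = 2.23e-08), and ChryM from Ctrl by 0.86 (95% interval 0.50 to 1.22). Hspa1l overlaps it. Of 29 tested chaperone genes only Hsf1, the heat shock transcription factor, was also called, so that 6.90% were called against 7.35% of all genes. Hsf1 had overlapping libraries and a call that was lost without Model replicate 2 (adjusted p = 0.43).

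Genes without a symbol made up a larger part of the higher genes. Of the 215 higher genes 66 (30.7%) carried no name, against 4 of the 106 lower genes (3.77%) and 5.88% of all genes tested. The 3 that follow were chosen after their values were seen. LOC102546590, which the deposited table describes as an HLA class I alpha chain-like gene, had the smallest p of all and read 53.6, 48.2 and 70.7 CPM in Ctrl, 459.7, 502 and 420.0 in Model and 101, 153 and 105 in ChryM. All Model libraries lay far above the rest, and the ChryM libraries lay above Ctrl; the difference was 2.47 ± 0.10 (adjusted p = 4.88e-61). Genes of this family are near-identical copies, so the counting could have split reads between them. ENSRNOG00000064836 had 200 counts over the 3 Model libraries, 2 over Ctrl and 0 over ChryM, 246 times the depth-scaled level of the other 6 together (95% exact binomial interval 67.1 to 2043, counting error only). ENSRNOG00000065780 had 205 counts in Model, 17 in Ctrl and 13 in ChryM, 16.8 times the level of the other 6 (11.4 to 25.5).

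Myelin genes formed the largest listed group among the lower genes. Of 23 tested, 15 were called lower and 1 (Qdpr) higher, 69.6% against 7.35% of all genes, and the median of the 23 was −0.69 on the log2 scale against −0.01. In 9 the Model libraries lay outside the other 6. In 6 of the 9, Mbp, Mobp, Mag, Opalin, Tf and Septin4, Ctrl and ChryM were within 1.5-fold of each other by the 95% interval. In Mal and Fa2h ChryM was itself lower than Ctrl. In bulk tissue, fewer oligodendrocytes and less RNA per oligodendrocyte cannot be told apart.

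Mbp, the major protein that compacts myelin on its cytoplasmic side, read 6675, 6439 and 6688 CPM in Ctrl, 4255, 4271 and 4398 in Model and 6909.6, 7074 and 6852 in ChryM. Model was the low group, ChryM was at or above Ctrl, and the log2 difference was −0.65 ± 0.06 (adjusted p = 8.08e-19). Mobp, another abundant protein of compact myelin with no neighbour within 5 kb, read 6529, 6732 and 6486 CPM in Ctrl, 4732, 3866 and 3652 in Model and 8571, 7398 and 7586 in ChryM. Here the ChryM libraries all exceeded the Ctrl libraries, by 0.25 on the log2 scale (95% interval 0.12 to 0.39), and the Model difference was −0.82 ± 0.06 (adjusted p = 6.10e-25). Mag, an adhesion protein of the innermost myelin layer, read 258, 263 and 264 CPM in Ctrl, 127, 137 and 129 in Model and 228, 170.3 and 220.1 in ChryM, a difference of −0.82 ± 0.10 (adjusted p = 5.20e-11). ChryM lay between the other groups. Opalin, a membrane protein of mature oligodendrocytes, differed by −1.02 ± 0.21 (adjusted p = 3.42e-05), and Tf, the transferrin that oligodendrocytes make, by −0.33 ± 0.08 (adjusted p = 1.98e-03). Septin4 differed by −0.37 ± 0.10 (adjusted p = 6.51e-03) and lost its call without Model replicate 3 (adjusted p = 0.13).

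Mal, a lipid raft protein of myelin, read 209.5, 218 and 198 CPM in Ctrl, 88.0, 80.3 and 60.6 in Model and 125, 124 and 123 in ChryM. Both Model and ChryM were below Ctrl, with Model the lower; the difference from the mean of the others was −1.09 ± 0.13 (adjusted p = 6.58e-13), and ChryM minus Ctrl was −0.75 (95% interval −0.98 to −0.53). Fa2h, which hydroxylates myelin lipids, was 19.5 ± 0.25, 4.26 ± 1.31 and 9.64 ± 2.05 CPM (adjusted p = 1.29e-02, and 0.13 without Model replicate 3). It was not called against ChryM alone (adjusted p = 0.22). Cldn11, Cnp, Tspan2 (overlapped by Tshb) and Ugt8 were called lower but are not among the 321 genes, since their Model and ChryM libraries overlapped. Cldn11 was 330 ± 38.5 CPM in Ctrl, 98.5 ± 14.3 in Model and 131 ± 29.8 in ChryM. Cnp was 316 ± 15.5 CPM in Ctrl, 145 ± 17.4 in Model and 176 ± 26.9 in ChryM. Tspan2 and Ugt8 lost their calls without Model replicate 3, with adjusted p of 0.053 and 0.14. Bcas1, also called, was level between Ctrl (947 ± 22.9 CPM) and Model (956 ± 37.9) and higher in ChryM (1429 ± 98.8). Ermn, also called lower, had an adjusted p of 4.56e-02 and reached 0.30 without Model replicate 3; its call was also lost without Ctrl replicate 2, Model replicates 1 or 2 or ChryM replicates 1 or 3. Qdpr, an enzyme of biopterin recycling, was 59.6 ± 6.53, 121 ± 30.2 and 113 ± 8.48 CPM, and its call was lost without Model replicate 2 (adjusted p = 0.064).

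**Figure D3:**
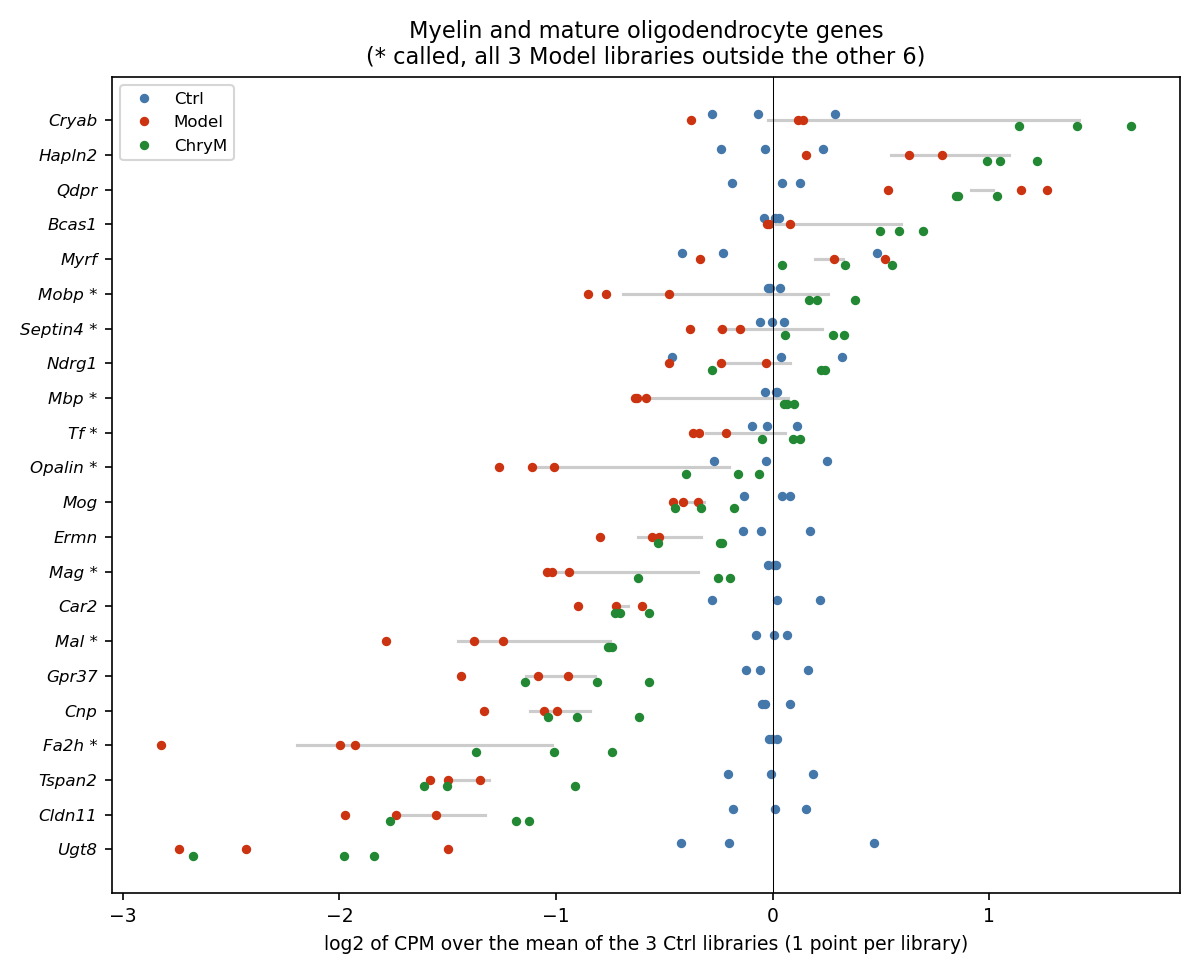
Levels of 22 of the 23 tested myelin and mature oligodendrocyte genes in each library, as log2 of CPM over the mean of the 3 Ctrl libraries, with 1 point per library, a grey line joining the Model and ChryM means, and an asterisk on genes that were called with Model outside the other 6. For Mbp and Mobp the ChryM points lie at or right of the Ctrl points, while for Cldn11 and Cnp they lie with or near the Model points.

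Start sites of 3 myelin genes are shown because their RNAs were low together in Model; Mag and Mal hold a match to the motif CTGGNAC of the oligodendrocyte factor Myrf and Mobp does not. The windows come from RefSeq (GRCr8), run 5′ to 3′ from 250 bases before to 50 bases after the start on the gene's own strand, and have matches in capitals: Mag chr1:95290995-95291294 (minus strand), Mal chr3:135341374-135341673 (minus strand) and Mobp chr8:128746982-128747281 (plus strand).
Mag: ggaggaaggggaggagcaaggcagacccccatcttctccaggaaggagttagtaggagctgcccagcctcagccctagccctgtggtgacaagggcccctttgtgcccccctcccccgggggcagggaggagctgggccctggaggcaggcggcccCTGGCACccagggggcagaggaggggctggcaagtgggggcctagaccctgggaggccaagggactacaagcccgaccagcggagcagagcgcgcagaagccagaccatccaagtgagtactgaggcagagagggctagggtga
Mal: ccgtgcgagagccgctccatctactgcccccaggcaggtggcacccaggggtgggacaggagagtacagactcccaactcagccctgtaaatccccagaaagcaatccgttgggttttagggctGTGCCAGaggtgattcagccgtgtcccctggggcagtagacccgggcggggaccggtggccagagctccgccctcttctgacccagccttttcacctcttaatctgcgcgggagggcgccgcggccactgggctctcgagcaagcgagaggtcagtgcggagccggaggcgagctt
Mobp: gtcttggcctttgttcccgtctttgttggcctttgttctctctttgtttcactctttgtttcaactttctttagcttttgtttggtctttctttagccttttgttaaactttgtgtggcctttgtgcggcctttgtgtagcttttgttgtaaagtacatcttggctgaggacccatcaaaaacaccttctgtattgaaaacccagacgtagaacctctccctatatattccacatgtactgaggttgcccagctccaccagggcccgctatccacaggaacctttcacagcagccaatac
The match begins at position −94 in Mag and, as the reverse complement, at position −126 in Mal. Searched on both strands, CTGGNAC occurs in 18.2% of 33469 windows of 300 bases, so a match in such a window is common. Among the 62 symbols that the selection rule named, 41 had a single window. The motif also occurs in the windows of Smtn, Pcp4 and Nat8f3, which were higher in Model. It occurs as well in those of Zfp57, Eif5b, Spata6l, Rgs14 and C1ql2, which were lower, and not in that of the myelin gene Fa2h. Mbp, Necab1 and Nefh had no window to search.

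Further lower genes were related to the myelin group by place in the genome or by cell type. Zfp57, a zinc finger gene that maintains imprints, overlaps the myelin gene Mog; it read 3295, 3110.3 and 3776 CPM in Ctrl, 2416, 2276 and 2382 in Model and 3146, 2999 and 3102 in ChryM, a difference of −0.46 ± 0.06 (adjusted p = 6.74e-10). Its Ctrl and ChryM libraries overlapped. Ptgds, a prostaglandin D synthase made by oligodendrocytes and by the meninges, read 172, 183 and 189 CPM in Ctrl, 89.7, 88.8 and 101 in Model and 163, 173 and 127 in ChryM. Model was below all others while Ctrl and ChryM overlapped, and the difference was −0.84 ± 0.12 (adjusted p = 4.64e-09). The summed level of the 5 meningeal markers was 139 to 157 CPM in Ctrl, 17.4 to 23.3 in Model and 19.6 to 24.2 in ChryM. In Ctrl, Igf2, also on the choroid plexus list, gave 262 counts of this sum, and the next marker, Col1a1, gave 43. The part of the meninges in the Ptgds difference was not tested. Tmem125 is the symbol of 2 identifiers whose counts may be shared. ENSRNOG00000066284 was 831 ± 47.1 CPM in Ctrl, 408 ± 11.1 in Model and 508 ± 35.6 in ChryM. ENSRNOG00000006924 lost its call without Model replicates 2 or 3 (adjusted p up to 0.16) and was not called against ChryM alone (0.32). Among 6 tested precursor genes, Sox10 and Olig1 were called (33.3%, against 7.35% of all genes), both lower with overlapping libraries. Sox10 lost its call without Ctrl replicates 2 or 3, Model replicates 2 or 3 or ChryM replicates 1 or 3 (adjusted p up to 0.36), and Olig1 without Ctrl replicate 2, any Model replicate or ChryM replicate 2 (up to 0.15).

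Markers of principal neurons included 4 lower genes of the dentate list and single genes elsewhere. Of 6 tested dentate granule genes, 4 were called (66.7%, against 7.35% of all genes), each lower (2.60% of all genes) with Model outside the other 6, and the median of the 6 was −0.70 against −0.01 over all genes. C1ql3, which encodes a secreted synaptic protein, read 98.7, 129 and 100.4 CPM in Ctrl, 71.7, 70.0 and 66.1 in Model and 88.3, 95.6 and 127 in ChryM, with Ctrl and ChryM overlapping and a log2 difference of −0.62 ± 0.14 (adjusted p = 8.86e-04); Pter and Rsu1 overlap it. C1ql2, its relative at mossy fibre synapses, was 40.5 ± 4.54, 24.5 ± 1.11 and 50.1 ± 14.8 CPM, a difference of −0.89 ± 0.23 (adjusted p = 2.87e-03). Sema5a, a semaphorin, differed by −1.45 ± 0.43 (adjusted p = 5.33e-03) and lost its call without Model replicates 2 or 3 (adjusted p up to 0.070). Dock10, a guanine nucleotide exchange factor, differed by −0.78 ± 0.23 (adjusted p = 1.08e-02) and lost its call without Model replicates 1 or 3 (up to 0.10). DESeq2 gave 4 of the 6 an adjusted p and called 1.

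Wfs1, which encodes wolframin of the endoplasmic reticulum and marks CA1 pyramidal cells, was the only called gene of 11 tested on the CA1 and CA3 list. It read 90.1, 56.7 and 77.8 CPM in Ctrl, 24.5, 22.2 and 30.3 in Model and 73.1, 88.6 and 98.3 in ChryM. Model was low while Ctrl and ChryM overlapped, and the difference was −1.62 ± 0.22 (adjusted p = 4.49e-12). In CA2, 2 of 6 tested genes were called (against 7.35% of all genes), in opposite directions. Rgs14, a regulator of G-protein signalling that limits plasticity in CA2, was 41.6 ± 4.48, 18.6 ± 1.36 and 33.7 ± 4.68 CPM, a difference of −0.995 ± 0.26 (adjusted p = 2.25e-03). Pcp4, a calmodulin-binding peptide, was 146 ± 8.63, 225 ± 8.75 and 169.7 ± 3.11 CPM, a difference of 0.51 ± 0.10 (adjusted p = 2.31e-05). Of 15 tested glutamate receptor and scaffold genes, Dlg4 and Gria2 were called (13.3%, against 7.35% of all genes), both lower with overlapping libraries. Dlg4, the scaffold PSD-95, was 291 ± 15.9 CPM in Ctrl, 172 ± 7.08 in Model and 187 ± 16.5 in ChryM. Gria2 lost its call without Model replicate 2 (adjusted p = 0.23).

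Ttr of the choroid plexus and Hba-a1 of blood were lowest in Model, but most of their difference lay between Ctrl and the other 2 groups. Ttr read 1544, 1487 and 1535 CPM in Ctrl, 3.26, 3.42 and 2.75 in Model and 46.7, 38.5 and 42.9 in ChryM. These are 3587, 6 and 101 counts, so that Ctrl was 488 times Model (95% exact binomial interval 224 to 1331) and ChryM 13.7 times Model (6.06 to 38.1). The summed level of 7 choroid plexus markers was 1545 to 1611 CPM in Ctrl, 3.03 to 6.47 in Model, where 3 of the 7 were at 0, and 42.7 to 47.8 in ChryM. Most of this sum in Ctrl and ChryM was Ttr itself. Clic6 gave 51, 2 and 2 counts in Ctrl, Model and ChryM, Kcnj13 gave 10, 1 and 6, and Folr1 gave 14, 1 and 0. Kl, Aqp1 and Otx2 were at 0 in both Model and ChryM. Enpp2, Igf2 and Igfbp2 of the same list were called lower but ChryM was at the level of Model. Enpp2 was 184 ± 10.3, 32.2 ± 8.02 and 38.2 ± 4.81 CPM, and Igf2 was 112 ± 20.8 CPM in Ctrl, 9.78 ± 1.24 in Model and 12.3 ± 2.63 in ChryM. Igfbp2 lost its call without Model replicates 2 or 3 or ChryM replicate 1 (adjusted p up to 0.17). Hba-a1, a haemoglobin alpha chain of red cells, read 245, 246 and 247 CPM in Ctrl, 53.8, 63.2 and 50.9 in Model and 75.7, 79.3 and 67.8 in ChryM, a difference of −1.28 ± 0.15 (adjusted p = 7.17e-14). Its 3 groups did not overlap, and Model was not called against ChryM alone (adjusted p = 0.14). Of 4 tested erythroid genes Hba-a1 and Hbb were called (50%, against 7.35% of all genes), Hbb at 92.5 ± 14.7, 24.2 ± 6.87 and 32.3 ± 4.02 CPM. Blood markers summed to 330 to 358 CPM in Ctrl, 65.1 to 84.0 in Model and 99.0 to 107 in ChryM. The part of these tissues in the other differences was not tested. Without the genes of the myelin, precursor, choroid plexus, meningeal and erythroid lists, 303 genes were called with Model outside the other 6.

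Metabolic and housekeeping lists contributed few genes. Slc16a13, a monocarboxylate transporter gene that overlaps Slc16a11, read 484, 462 and 549 CPM in Ctrl, 370.1, 393 and 321 in Model and 720.0, 718 and 790.3 in ChryM. The 3 groups were separate, with ChryM the highest, and the difference of Model was −0.76 ± 0.08 (adjusted p = 5.87e-16). Scd2, a fatty acid desaturase and the only called gene of 16 on the cholesterol and lipid list, was 602 ± 25.4, 434 ± 16.7 and 512 ± 14.4 CPM (adjusted p = 1.80e-04). It was not called against ChryM alone (adjusted p = 0.060). Glycolysis gave 3 called of 19 (against 7.35% of all genes), each higher (Ldhb, Tpi1 and Pfkp). Spsb2 overlaps Tpi1. Tpi1 was 254 ± 13.1 CPM in Ctrl, 285 ± 4.65 in Model and 213 ± 17.5 in ChryM. It was not called against Ctrl alone (adjusted p = 0.32), and Ldhb was not called against ChryM alone (0.46). With library totals in place of TMM scaling none of the 3 was called, at an adjusted p of 0.15 for Ldhb, 0.15 for Tpi1 and 0.11 for Pfkp. Ldhb lost its call without Ctrl replicate 2, Model replicate 3 or ChryM replicate 2 (adjusted p up to 0.23), Tpi1 without Ctrl replicate 2 or any Model replicate (up to 0.097), and Pfkp without Ctrl replicate 2, Model replicate 3 or ChryM replicate 3 (up to 0.56). DESeq2 gave 18 of the 19 an adjusted p and called none. Of 80 nuclear genes of oxidative phosphorylation 2 were called (2.50%, against 7.35% of all genes), Ndufb8 and Ndufs7. Ndufb8 was 149.9 ± 14.3, 202 ± 38.4 and 166 ± 15.9 CPM, with overlapping libraries, and lost its call without Model replicates 2 or 3 (adjusted p up to 0.18), with library totals (0.077) and with DESeq2 (0.095). Ndufs7 is a complex I subunit and was at 515 ± 30.8, 379 ± 37.3 and 439 ± 16.1 CPM (adjusted p = 1.18e-03, and 0.059 without Model replicate 1). It was not called against ChryM alone (adjusted p = 0.13). Of 69 cytosolic ribosomal protein genes 3 were called lower (4.35%, against 2.60% of all genes). Only Rpl12 had Model outside the other 6, with ChryM (226 ± 9.37 CPM) above Ctrl (164 ± 6.41) and Model at 139 ± 5.98. Rpl12 was not called against Ctrl alone (adjusted p = 0.21). In the other 2, Rpl21 and Rps23, Model was level with Ctrl and ChryM was higher: Rpl21 was 209 ± 26.6, 215 ± 14.7 and 368 ± 12.0 CPM, and Rps23, which overlaps Atp6ap1l, was 468 ± 11.9, 470.5 ± 49.6 and 653 ± 12.6 CPM. Rpl21 lost its call without Model replicate 3 (adjusted p = 0.079), and Rps23 with DESeq2 (0.12) and without Ctrl replicates 1 or 2, Model replicates 2 or 3 or ChryM replicates 1 or 2 (up to 0.47).

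Other lower genes were mostly single members of their lists. Cracdl was 124 ± 6.13 CPM in Ctrl, 71.9 ± 7.81 in Model and 146 ± 4.05 in ChryM, a difference of −0.90 ± 0.14 (adjusted p = 1.75e-08). Eif5b, a translation initiation factor, was 92.3 ± 12.5, 51.4 ± 14.0 and 113 ± 11.3 CPM, a difference of −0.98 ± 0.16 (adjusted p = 1.85e-07). Spata6l, which overlaps the glutamate transporter gene Slc1a1 and Plpp6, was 1542 ± 111, 1221 ± 36.8 and 1568 ± 35.4 CPM, a difference of −0.35 ± 0.06 (adjusted p = 1.03e-05). Flrt3, a synaptic adhesion gene overlapping Macrod2, differed by −1.78 ± 0.48 (adjusted p = 1.25e-03), with values as low as 3.42 CPM. Of 18 tested genes of the insulin and IGF list 3 were called (16.7%, against 7.35% of all genes), each lower (2.60% of all genes). Igf2, described above with ChryM at the level of Model, was among them. Only Pik3r2, a regulatory subunit of phosphoinositide kinase, had Model outside the other 6, at −0.46 ± 0.13 (adjusted p = 1.63e-02). Its call was lost without Model replicates 2 or 3 or ChryM replicate 2 (up to 0.12).

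**Figure D4:**
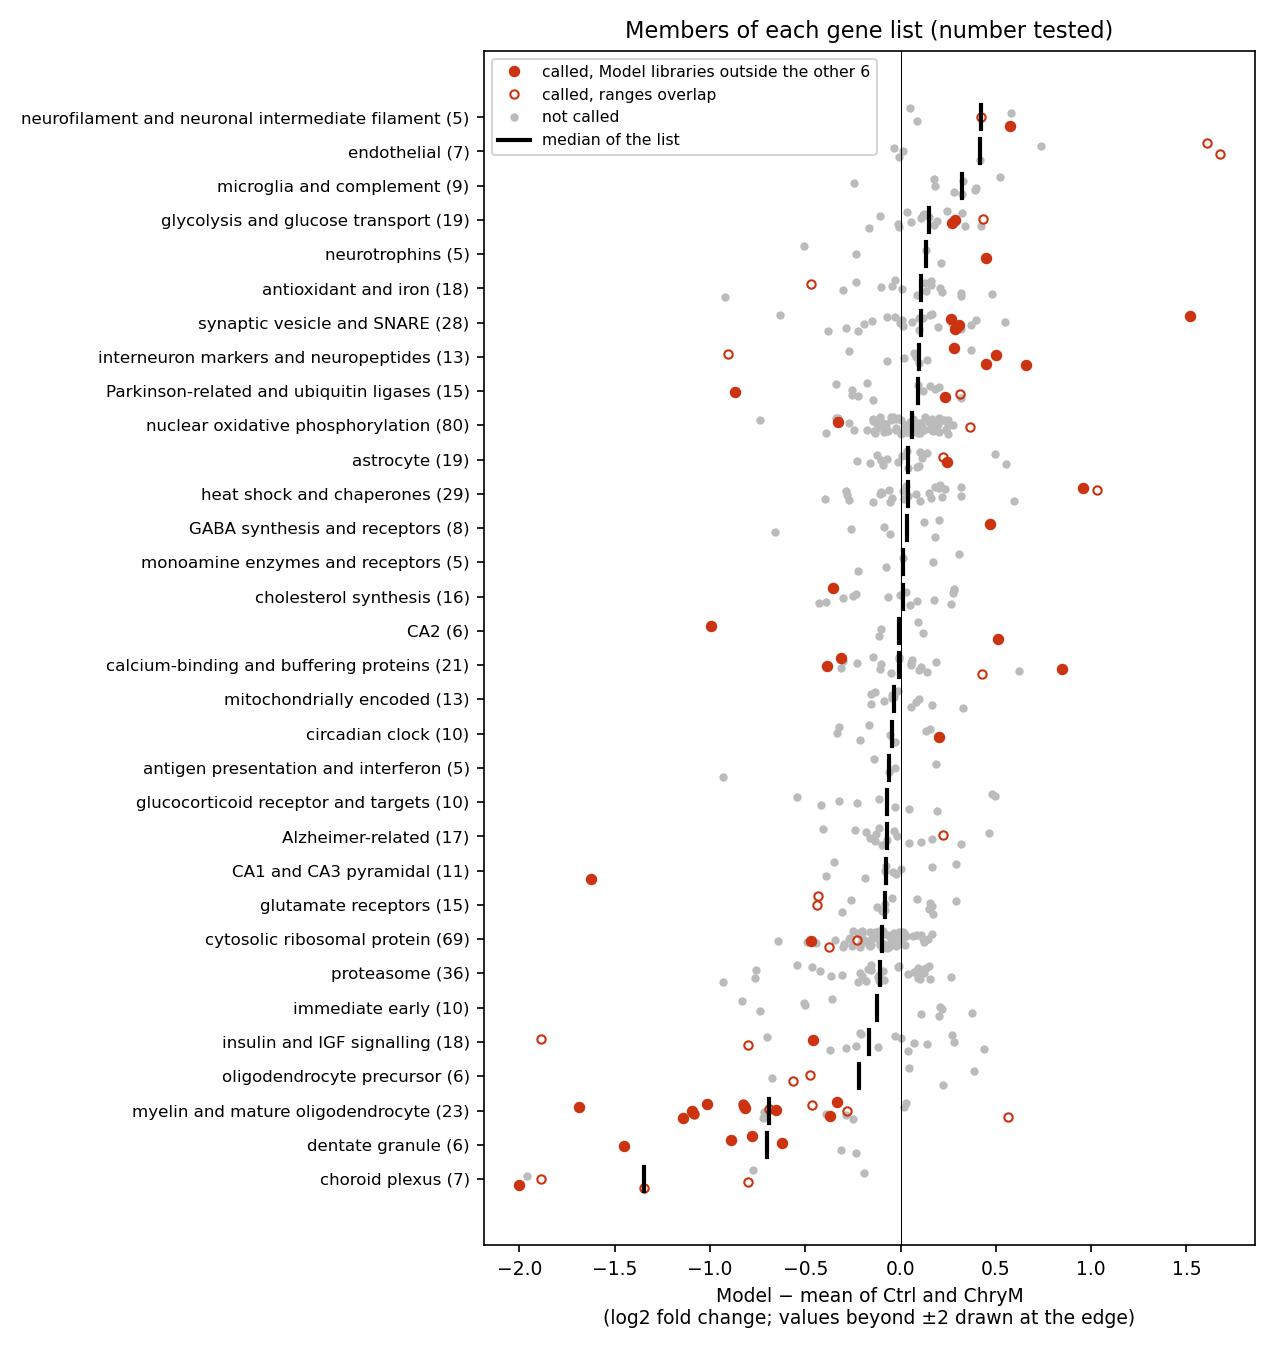
Log2 fold change of Model minus the mean of Ctrl and ChryM for the tested genes of each list with at least 5 tested, with filled red points for called genes with Model outside the other 6, open red points for other called genes, grey points for the rest and a black bar at the list median. Filled points gather left of 0 in the myelin and dentate granule lists and right of 0 in the synaptic vesicle and neuropeptide lists.

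Several lists had no called gene with edgeR. No gene was called of 10 tested immediate early genes, of 10 glucocorticoid receptor targets, of 9 microglial and complement genes, of 5 antigen presentation genes, of 5 monoamine genes, of 4 genes of neurons in neighbouring regions, of 36 proteasome genes and of 13 mitochondrially encoded genes. At an unadjusted p under 0.05 the same lists had 3, 1, 1, 0, 1, 1, 4 and 2 genes. The pericyte and ependymal lists each had 1 tested gene, which was not called at either threshold. DESeq2 called none of the genes of these lists that it gave an adjusted p, and limma-voom called none except 1 mitochondrially encoded gene. Among 19 tested astrocyte genes 2 were called (10.5%, against 7.35% of all genes), both higher. Sparcl1, a secreted synapse-organising protein, had Model outside the other 6 at 0.24 ± 0.06 (adjusted p = 3.73e-03; 0.072 without Model replicate 1), and Apoe was higher than Ctrl in both Model and ChryM. Sparcl1 was 1239 ± 21.6 CPM in Ctrl, 1366 ± 58.4 in Model and 1075 ± 72.3 in ChryM. It was not called against Ctrl alone (adjusted p = 0.22). Of 7 tested endothelial genes, Apold1 and Klf2 were called (28.6%, against 7.35% of all genes). Both were higher with overlapping libraries, and in Apold1 ChryM was the group that stood apart. Apold1 was 31.3 ± 5.94 CPM in Ctrl, 29.1 ± 4.52 in Model and 2.43 ± 2.11 in ChryM. Klf2, which Eps15l1 overlaps, lost its call without Model replicate 3 (adjusted p = 0.061). Of 4 tested meningeal matrix genes 2 were called (50%, against 7.35% of all genes), Col4a2 and Cdkn1c, both lower with overlapping libraries. Col4a2 was 102 ± 13.5 CPM in Ctrl, 95.3 ± 3.51 in Model and 206.5 ± 25.4 in ChryM. Cdkn1c lost its call without Ctrl replicate 1 or Model replicates 2 or 3 (up to 0.098).

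Lists named for disease or for clock and redox functions held isolated calls. On the Parkinson and ubiquitin ligase list 3 of 15 were called (20%, against 7.35% of all genes), Uchl1 and Ube3a higher and Vps35 lower. Uchl1, a neuronal deubiquitinase overlapped by Apbb2, was 358 ± 32.7 CPM in Ctrl, 457 ± 25.05 in Model and 422 ± 12.0 in ChryM (adjusted p = 3.53e-02), and lost its call without Ctrl replicate 2, any Model replicate or ChryM replicate 2 (up to 0.28), with library totals (0.22) and with DESeq2 (0.090). Vps35, the core of the retromer that recycles endosomal cargo, was 35.8 ± 3.97, 15.3 ± 2.51 and 21.6 ± 2.84 CPM (adjusted p = 3.55e-02), and lost its call without Ctrl replicates 2 or 3, any Model replicate or ChryM replicate 3 (up to 0.23). Uchl1 and Vps35 were not called against ChryM alone (adjusted p = 0.50 and 0.43). Ube3a was higher in ChryM (724 ± 83.3 CPM) than in Model (589.7 ± 16.7) and lowest in Ctrl (315 ± 68.2). Of 10 tested clock genes only Nr1d1, the repressor REV-ERB alpha overlapped by Thra, was called, at 3241 ± 147, 3993 ± 23.3 and 3722 ± 181 CPM (adjusted p = 1.52e-02). It was not called against ChryM alone (adjusted p = 0.44). Nr1d1 lost its call without any Model replicate or ChryM replicate 2 (up to 0.088), and with library totals (0.088). Of 17 Alzheimer-related genes only Apoe was called, with overlapping libraries and a call lost without Model replicates 2 or 3 (up to 0.069). Of 18 antioxidant and iron genes only Fth1, the ferritin heavy chain, was called, with Ctrl (1049 ± 50.4 CPM) and Model (957 ± 47.4) overlapping and ChryM higher (1665 ± 116).

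The range condition had a sharp edge. Pnrc2 was just inside it, with its lowest Model library at 2885 CPM and the highest other at 2883, and Nfasc, an axonal adhesion gene, just outside, with its highest Model library at 92.3 and the lowest other at 92.1. A further 240 tested genes had Model outside the other 6 without passing the test, of 561 (7.93%) outside in all. Among 23489 genes too low to test, 260 had all 3 Model libraries outside, 118 above and 142 below. Of the 321 genes, 35 lay over 5 kb from any other gene in the RefSeq table, 15 higher and 20 lower, among them Mobp, Wfs1 and Ttr.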

How the data were processed

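RNA of the rat hippocampus was measured in 9 poly(A) libraries, 3 per group, grouped by the labels. The authors deposited whole-number read counts per gene and FPKM, per the file headers; the deposited FPKM equalled count over length and library total in 100% of values (relative tolerance 1e-09), so it served as an alternative only. The submitters' processing notes name HISAT2 and DESeq2 and no version of either. The counting tool, strand setting, genome build and annotation were not given in the sources used here. No column of other samples was present.

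Of 30562 identifiers, 7073 passed edgeR's filterByExpr. One fit with a coefficient per group was made on all libraries (edgeR 4.0.16 in R 4.3.3, glmQLFit robust, TMM factors 0.956 to 1.07, 6 residual degrees of freedom, biological coefficient of variation 5.50%). Model minus the mean of the Ctrl and ChryM coefficients was tested two-sided with glmQLFTest, with Benjamini-Hochberg adjustment over the 7073 genes and a threshold of 0.05. The orthogonal ChryM minus Ctrl contrast gave the classes, at 95% and a 1.5-fold band. The larger of test and counting error is printed as SE; the test error was the smaller in 73 of the 321 genes, whose p may be too small. The script was tested on simulated data.

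Genes were named by rule among the 321 with a symbol and a mean of at least 10 CPM: the 8 smallest p in each direction, the 5 largest differences, the 6 smallest p with Ctrl and ChryM within the band, and up to 3 per list (at least 1 CPM), in all 63 identifiers. Other called members of the 39 lists are also named, most with values. A few genes, while counted, are not reported here. The comparison, members and lists were chosen with earlier results of these data known, so they are no independent evidence of direction, and lists are described by counts with no set test. Marker sums are CPM of the library total. Intervals of ratios are exact binomial. Alternatives were other scalings, filters and tools (DESeq2 1.42.0, limma 3.58.1 with voom or log2 of FPKM plus 1 or 0.1, sva 3.50.0), a replicate block, genes over 5 kb from others, and leaving out each library. Gene neighbours, matched by identifier or, failing that, by symbol, and promoter windows came from RefSeq (GRCr8). No coordinates of the count table were used.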

Additional observations from a re-analysis of the deposited data

How the results depend on the processing

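No result changed direction for any of the 63 genes named by rule: of 1363 combinations of gene and alternative, 1239 kept the call and 124 lost it, and 31 of the 63 genes kept it in each alternative that tested them, among them Necab1, Sncg, Nnat, Syn3, Nefh, Vgf, Cck, Hspa1a, Mbp, Mobp, Mag, Mal, Wfs1, Zfp57 and Ptgds. Uchl1 lost it in 12. Calls lost with library totals, all of higher genes, are given beside the genes described. On both FPKM scales Sparcl1, Cabp1, Gria2, Hsf1, Klf2, Qdpr, Ube3a, Nat8f3 and Hey1 also lost theirs. The main counts were 520 genes called, 336 higher and 184 lower, 321 with Model outside the other 6, and 212 of these with Ctrl and ChryM within 1.5-fold. With library totals 203 were higher and 327 lower. DESeq2, which gave 3809 genes an adjusted p, called 258, 198 higher and 60 lower, with 188 outside and 133 within 1.5-fold. With no count filter 121 were lower. With Ctrl and ChryM as 1 group of 6 the counts were 85 called, 61 higher, 24 lower, 85 outside and 59 within 1.5-fold; Ttr and Hba-a1 lost their calls there, since their ChryM to Ctrl difference counts as spread. On log2(FPKM + 1) 139 were higher and 137 within 1.5-fold, and on log2(FPKM + 0.1) 133 and 121. Among the 1064 genes over 5 kb from another gene, a smaller set, 56 were called, 23 higher and 33 lower, with 32 outside and 18 within 1.5-fold. For the other moves the cause was not tested. Leaving out each library gave 339 to 603 called, 236 to 412 higher, 103 to 191 lower, 271 to 384 outside and 162 to 243 within 1.5-fold. The alternative without the genes of 5 lists was chosen after seeing the data (480 called).

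Libraries with the same replicate number did not deviate together (correlation of deviations −0.04 to 0.11 over 2923 genes, against −0.10 to 0.10 for different numbers), and 5 of 9 correlated best with their own number, so the numbers were not taken to pair. The fit with a replicate block called 502 genes (332 higher, 170 lower; 315 outside, 213 within 1.5-fold) and lost none of the 63. Depth limited the low genes: 23489 of 30562 identifiers were not tested.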
